A study of Homo sapiens with 4 samples.

Results

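The 10 genes described here encode the TGF-β ligands (TGFB1, TGFB2 and TGFB3), the TGF-β receptors (TGFBR1, TGFBR2 and TGFBR3) and 4 SMAD proteins of the same pathway (SMAD2, SMAD3, SMAD4 and SMAD7). They were chosen by name, with earlier results of these data known, out of 64486 annotated genes of which 20176 are protein-coding. All 10 were found in the GENCODE annotation of GRCh37. The cells were MDA-MB-231, an established triple-negative breast cancer line with mesenchymal features. Untreated cells were compared with cells given Tat-SID at 1 μM or at 2.5 μM. Tat-SID is a cell-penetrating peptide that carries the SIN3 interaction domain of MAD and competes for the PAH2 domain of the SIN3 corepressor; the study's discussion puts the treatment at 3 days. H3K4me3, a histone mark of active promoters, was measured by native ChIP-Seq on 1 library for each condition, beside 1 input library. The untreated library came from cells without peptide, not from cells given a scrambled peptide. The BED files used here list regions whose H3K4me3 was reduced against the same untreated library, 141 regions at 1 μM and 2063 at 2.5 μM, and 3 regions with increased H3K4me3 at 2.5 μM. Each entry is a chromosome, a start and an end, with no read number, fold change or FDR. The size of a reduction, the level of H3K4me3 before treatment and the depth of the libraries are therefore unknown here, and with 1 library per condition no difference between conditions was tested. A gene was called when a reduced region lay within 3 kb of its gene start or of the transcription start site (TSS) of any of its annotated transcripts, and TSS at the same base were counted once.

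TGF-β is secreted in a latent form and, once released, binds the type II receptor TGFBR2, which recruits and phosphorylates the type I receptor TGFBR1. TGFBR3 (betaglycan) is a coreceptor that presents ligand, above all TGF-β2, to the type II receptor. The type I receptor phosphorylates the receptor-regulated SMAD2 and SMAD3, which join the common mediator SMAD4 and act on target genes in the nucleus, and the inhibitory SMAD7 blocks the receptor and is itself induced by the pathway. In breast epithelium TGF-β signalling restrains growth, and in carcinoma cells it can drive epithelial to mesenchymal transition and invasion.

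At 2.5 μM Tat-SID, 3 of the 10 genes had a region of reduced H3K4me3 at the promoter, and there was 1 of each role: the ligand gene TGFB2, the type II receptor gene TGFBR2 and the receptor-regulated SMAD gene SMAD3. At 1 μM, TGFBR2 was the 1 gene of the 10 with such a region. In each case the region covered the canonical TSS itself. By the same rule 5.30% of all annotated genes and 10.8% of protein-coding genes were called at 2.5 μM, and 0.360% and 0.674% at 1 μM. All 10 genes have a CpG promoter at the canonical TSS. This means a GC content over 50% and a ratio of observed to expected CpG over 0.6 within 1 kb on each side. Among the 10195 protein-coding genes with such a promoter, 15.0% were called at 2.5 μM and 0.942% at 1 μM. At the gene start 6 of the 10 genes, without SMAD3, have a CpG promoter, and 2 of the 6 were called at 2.5 μM and 1 at 1 μM. Of all protein-coding genes with a CpG promoter at the gene start, 14.8% and 0.901% were called. Among the 12975 protein-coding genes with at least 4 TSS, which all 10 genes have, the shares were 13.3% and 0.817%. With so few genes, 3 of 10 and 1 of 10 are given as counts beside these shares and were not tested.

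The promoter sequences that the called regions cover are shown first, with that of TGFB3, a ligand gene without a reduced region. The promoters of TGFB2 and TGFB3 both hold the motif TATAAA. Each sequence is the 250 bases before the canonical TSS on the strand of the gene, 5′ to 3′, from GRCh37. Capitals mark matches on either strand to 6 of the 7 motifs searched, CACGTG (E-box, bound by MYC, MAX and MXD proteins), TGACTCA (AP-1 site), CAGACA (SMAD element), GGGCGG (GC box), TATAAA (bound by TBP) and CCAAT (bound by NF-Y), the last 2 of which are called TATA and CCAAT boxes; the other, the palindrome GTCTAGAC, had no match at any of the 10 genes.
TGFB2 (chr1:218518428-218518677, plus strand): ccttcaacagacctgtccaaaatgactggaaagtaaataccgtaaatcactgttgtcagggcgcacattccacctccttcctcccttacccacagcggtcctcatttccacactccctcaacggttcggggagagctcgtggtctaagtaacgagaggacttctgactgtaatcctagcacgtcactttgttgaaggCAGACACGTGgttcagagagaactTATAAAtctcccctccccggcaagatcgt
TGFB3 (chr14:76448339-76448588, minus strand): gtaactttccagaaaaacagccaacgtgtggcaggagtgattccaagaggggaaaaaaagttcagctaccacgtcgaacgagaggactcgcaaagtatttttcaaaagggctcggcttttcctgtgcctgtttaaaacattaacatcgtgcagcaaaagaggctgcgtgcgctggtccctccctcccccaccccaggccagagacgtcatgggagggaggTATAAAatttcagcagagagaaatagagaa
TGFBR2 (chr3:30647843-30648092, plus strand): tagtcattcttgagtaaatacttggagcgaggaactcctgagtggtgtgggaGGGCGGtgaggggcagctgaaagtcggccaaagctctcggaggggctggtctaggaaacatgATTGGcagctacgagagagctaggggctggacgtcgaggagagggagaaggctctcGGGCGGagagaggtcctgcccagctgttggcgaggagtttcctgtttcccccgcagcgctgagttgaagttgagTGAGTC
SMAD3 (chr15:67357690-67357939, plus strand): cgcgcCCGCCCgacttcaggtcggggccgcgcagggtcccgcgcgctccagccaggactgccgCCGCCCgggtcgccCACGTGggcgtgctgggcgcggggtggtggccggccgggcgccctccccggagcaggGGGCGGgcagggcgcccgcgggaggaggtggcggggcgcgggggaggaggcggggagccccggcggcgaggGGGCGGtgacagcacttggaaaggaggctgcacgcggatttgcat

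The 3 covered promoters did not share 1 motif. Motifs were counted from 250 bases before to 50 bases after the TSS, and the share of promoters with a match is over 19819 protein-coding genes. TGFB2 held an E-box at base -49 from the TSS, overlapping a SMAD element that starts at -53, and a TATA box at -29. A SMAD element was present in 14.3% of all promoters and in 11.0% of those of genes called at 2.5 μM. SMAD3 also held an E-box, at -173, and 5 GC boxes, 1 of them after the TSS at base 19. An E-box was present in 8.76% of all promoters and in 9.30% of the 2171 promoters of genes called at 2.5 μM. TGFBR2 held no E-box. Its window had 2 GC boxes, at -198 and -80, a CCAAT box at -136 and an AP-1 site that runs from -6 to the first transcribed base, so that its last letter is not in the line shown. An AP-1 site was present in 3.57% of all promoters and a GC box in 61.5%. Of the 3 ligand genes, TGFB2 and TGFB3 held a TATA box, at -29 and -30, and TGFB1 held none but 7 GC boxes. A TATA box was present in 9.65% of all promoters and in 8.15% of those of genes called at 2.5 μM. A match is a run of letters and does not show that a factor was bound.

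TGFB2 encodes the TGF-β isoform that depends most on the coreceptor betaglycan to reach its receptors. Its gene lies on chr1:218518678-218617961 on the plus strand. The region of reduced H3K4me3 at 2.5 μM spanned chr1:218517101-218525299, a length of 8199 bp, from 1577 bp before the canonical TSS to 6621 bp after it. It held the whole of exon 1, with the start codon, and the first 4910 bp of intron 1, which is 8.45% of that intron. It covered 3 of the 4 annotated TSS of the gene, and the other TSS, of a transcript without a defined coding sequence, lay 82.2 kb beyond the region. The region also covered the start of TGFB2-AS1, a long non-coding RNA gene on the opposite strand that starts 700 bp inside TGFB2, so a reduction at the TGFB2 start cannot be told apart from 1 at the antisense start. The 1 μM list came no closer to a TSS of TGFB2 than 8893 kb, at CDC42BPA. The TGFB2 promoter was thus on the list for the higher dose and not on that for the lower.

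TGFBR2 encodes the type II receptor, the kinase that binds TGF-β first, and was the gene on both lists. The gene lies on chr3:30648093-30735634 on the plus strand. At 1 μM the region spanned chr3:30646551-30656649 (10099 bp) and at 2.5 μM it spanned chr3:30646551-30656149 (9599 bp). Both began at the same base, 1542 bp before the canonical TSS, and the 1 μM region ended 500 bp further into the gene. All of the 2.5 μM region and 95.0% of the 1 μM region lay in the overlap. A longer region at the lower dose was not unusual, since 75 of the 141 regions at 1 μM were longer than every 2.5 μM region they overlapped. The untreated library is the control of both lists, so the presence of TGFBR2 on both is not a repeat measurement. The regions held exon 1, which carries the start codon 283 bp after the TSS, and the first 8180 bp (1 μM) or 7680 bp (2.5 μM) of intron 1, 21.7% and 20.3% of the intron. They covered 2 of the 5 distinct TSS, that of the 2 protein-coding transcripts and that of a transcript without a defined coding sequence in intron 1, which lay just inside the downstream end of the 2.5 μM region. The TSS of the next transcript lay 16.5 kb beyond the 2.5 μM region. No TSS of another gene lay in the regions or within 3 kb of them, so TGFBR2 was the 1 gene of the 3 whose region held no start site of another gene.

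SMAD3 encodes a receptor-regulated SMAD that binds DNA directly. Its gene lies on chr15:67356101-67487511 on the plus strand and has 18 annotated TSS spread over the gene. The region at 2.5 μM spanned chr15:67355501-67363199 (7699 bp). It began 600 bp before the gene start, which belongs to a transcript outside the basic set of the annotation, and 2439 bp before the canonical TSS, and it reached 5259 bp beyond the latter. It held exon 1 with the start codon and the first 4501 bp of intron 1, which is 4.57% of that intron. The region covered 4 of the 18 TSS, all of them of protein-coding transcripts at the 5′ end. The next TSS, of a retained-intron transcript, was 7.13 kb away, and the TSS of the next protein-coding transcript was 27.7 kb away. Of the 4 covered TSS, 1 lay inside intron 1 of the canonical transcript, and none of the internal TSS further downstream was within 3 kb of the region. It also covered the start of an unnamed long non-coding RNA gene on the opposite strand (ENSG00000259347), 334 bp upstream of the canonical TSS of SMAD3. On the 1 μM list the closest region was 11146 kb away, at NEDD4.

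**Figure D1:**
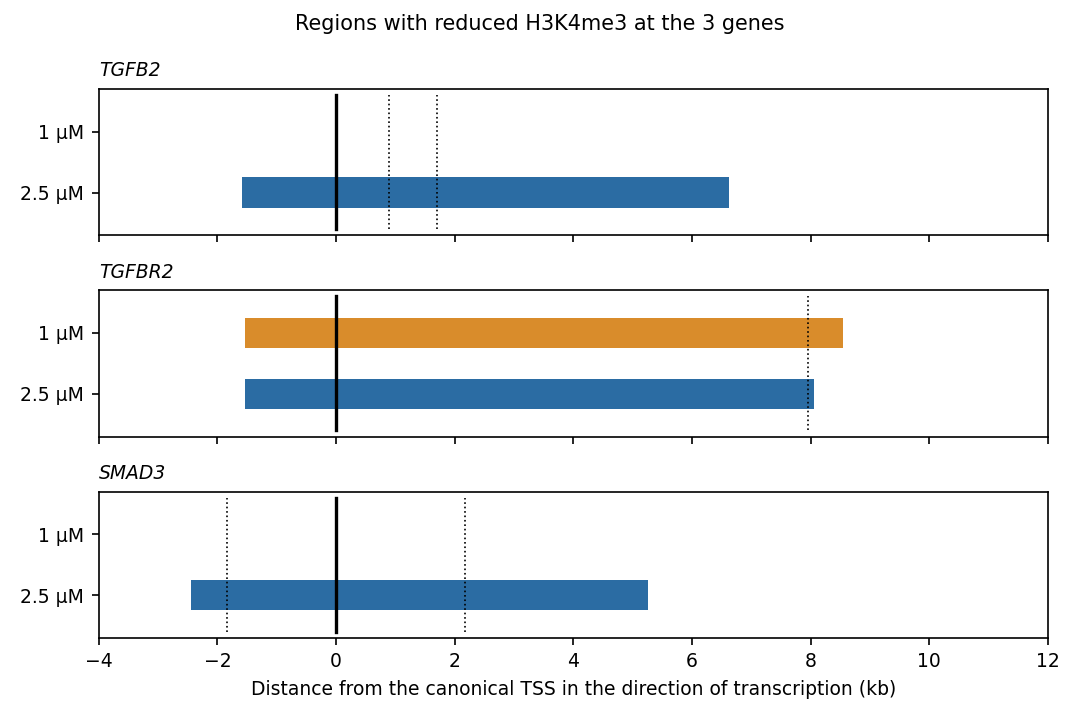
Horizontal bars show the regions with reduced H3K4me3 at TGFB2, TGFBR2 and SMAD3 at each dose of Tat-SID, against the distance from the canonical TSS in kb; the solid line is the canonical TSS and dotted lines are other annotated TSS of the gene. All 4 bars reach further downstream than upstream of the TSS, and TGFBR2 alone has a bar at 1 μM.

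The regions at the 3 genes were long, and at TGFB2 and TGFBR2 the extra length lay on the transcribed side. Of the 2063 regions at 2.5 μM, 95.6% were shorter than that of TGFBR2, 91.2% shorter than that of TGFB2 and 88.5% shorter than that of SMAD3, and the median over all regions was 4949 bp. Among the 1321 regions at 2.5 μM that cover the canonical TSS of exactly 1 protein-coding gene, the median extent was 1543 bp upstream and 3405 bp downstream of the TSS. The upstream extents of TGFBR2 (1542 bp) and TGFB2 (1577 bp) were close to that median, and their downstream extents, 8056 bp and 6621 bp, exceeded those of 97.4% and 94.7% of the regions. SMAD3 was more even, with an upstream extent above 83.6% and a downstream extent above 86.4% of the regions. Regions that reached further downstream than upstream made up 90.9% of the 1321, so the direction itself was common. In the 1 μM list, where the median length was 8599 bp, the TGFBR2 region ranked 40 of 141. Region length depends on the depth of the libraries and on the island calling of the authors and is not a measure of how much H3K4me3 was lost.

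**Figure D2:**
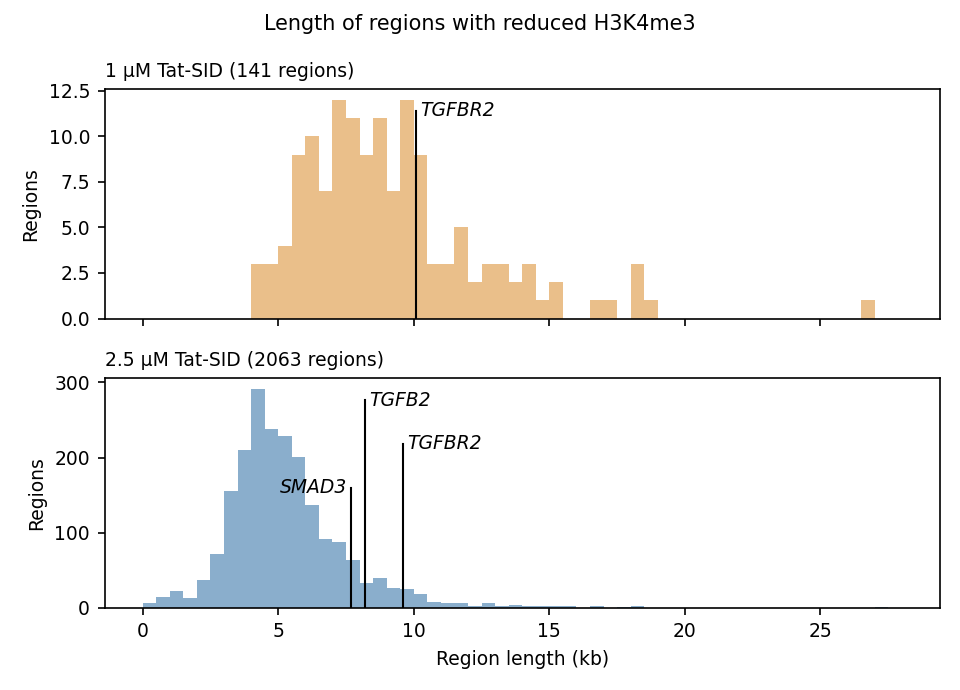
Histograms show the length in kb of the 141 regions on the 1 μM list (top) and the 2063 on the 2.5 μM list (bottom), and vertical lines mark the regions over the TSS of the named genes. TGFB2, TGFBR2 and SMAD3, at 8199, 9599 and 7699 bp, lie to the right of the 2.5 μM median of 4949 bp.

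**Figure D3:**
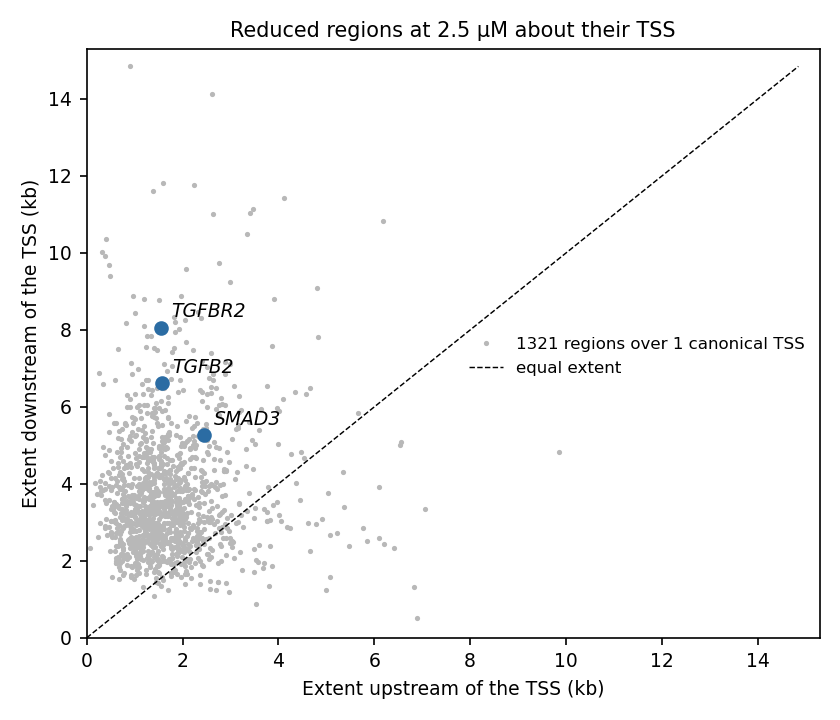
Each grey point is 1 of the 1321 reduced regions (2.5 μM) that cover 1 canonical protein-coding TSS, placed by its extent in kb upstream (horizontal axis) and downstream (vertical axis) of that TSS; blue points are the 3 named genes and the dashed line marks equal extents. TGFB2 and TGFBR2 sit near the middle of the upstream values and high on the downstream axis.

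The 3 regions differed in base composition. The SMAD3 region had a GC content of 54.7%, above the median of 45.1% over all regions at 2.5 μM, and the TGFB2 and TGFBR2 regions had 43.3% and 42.7%, just below it. Within 1 kb of the canonical TSS the GC content was 67.2% at SMAD3, 55.9% at TGFBR2 and 52.2% at TGFB2. The genes without a reduced region ranged from 58.6% at TGFB3 to 69.1% at TGFBR1, so TGFB2 and TGFBR2 had the 2 lowest values of the 10 and SMAD3 lay among the uncalled genes. The ratio of observed to expected CpG was 0.641 at TGFB2 and equally 0.641 at the uncalled TGFB3, and it was lowest at the uncalled TGFB1 (0.612). Base composition near the TSS thus did not separate the called genes from the others.

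Of the 10 genes, 7 had none of their TSS within 10 kb of a listed region at either dose, and the gap between called and uncalled genes was wide. Few genes of any kind lay just outside the window. Over all annotated genes the share called at 2.5 μM was 5.30% with 3 kb and 6.35% with 10 kb. The closest at 2.5 μM was TGFB1, which encodes the most widely expressed TGF-β. Its nearest reduced region, 115 kb from a TSS, covered the start of AXL, a receptor tyrosine kinase gene. TGFBR3 followed at 209 kb, where the region lay at CDC7. SMAD7, the inhibitory SMAD, was 535 kb away, and TGFBR1, the type I receptor gene, was 672 kb from a region at NR4A3. TGFB3 was 1194 kb from a region at YLPM1. SMAD4 and SMAD2 were 1535 kb and 1555 kb from the same region as SMAD7, which lies on chromosome 18 over the starts of RPL17 and C18orf32. No reduced region overlapped any part of the bodies of these 7 genes. Of the 100 distinct TSS of the 10 genes, 9 were near a region of the 2.5 μM list by the 3 kb rule and all 9 were inside it. TSS of the same gene can share a region and are not separate observations. A covered TSS was usual, as 5.30% of all annotated genes were called within 3 kb and 4.89% with the region over the TSS base.

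At 1 μM the uncalled genes were further still from any reduced region. This follows largely from the lists, as all 141 regions at 1 μM overlapped 1 or more of the 2063 at 2.5 μM. TGFBR3 was 2325 kb away from the nearest, at ARHGAP29, TGFB3 was 10544 kb away and TGFBR1 12749 kb. Chromosome 18, with SMAD2, SMAD4 and SMAD7, and chromosome 19, with TGFB1, held no reduced region at 1 μM. At 2.5 μM the share of protein-coding genes called was 2.91% on chromosome 19 (43 of 1480, exact Clopper-Pearson 95% confidence interval 2.11% to 3.89%), the lowest of the 7 chromosomes that carry the 10 genes, and 12.4% on chromosome 18 (33 of 266, 8.70% to 17.0%). On chromosomes 1, 3 and 15, with TGFB2, TGFBR2 and SMAD3, it was 12.3%, 13.6% and 9.56%. The highest share of the 7 was on chromosome 14, with the uncalled TGFB3, at 17.0% (105 of 616, 14.2% to 20.3%), and chromosome 9, with the uncalled TGFBR1, had 9.01%. These intervals cover counting error over genes only and treat genes as independent. Called genes can share a region, as chromosome 19 had 43 called genes and 31 regions, so the intervals may be too narrow. A gene that is not on a list did not pass the threshold of the authors, which does not show that its H3K4me3 was unchanged, and a promoter without H3K4me3 in untreated cells could not be listed as reduced. The 3 increased regions are on chromosomes 5, 16 and 17, which carry none of the 10 genes.

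**Figure D4:**
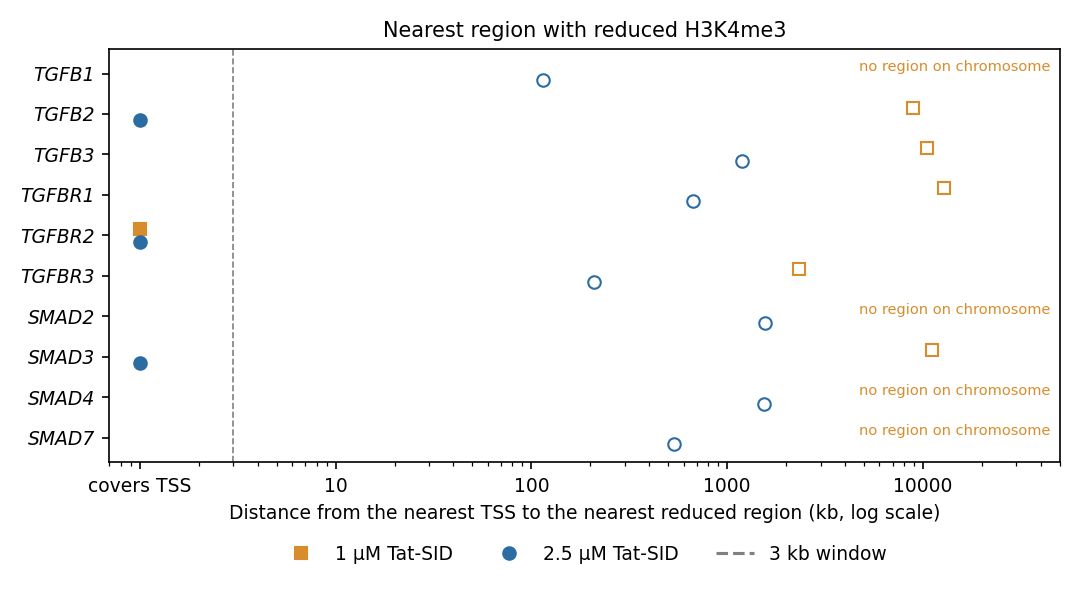
Points show, for each of the 10 genes, the distance in kb (log axis) from its nearest annotated TSS to the nearest reduced region at 1 μM (squares) and 2.5 μM Tat-SID (circles); filled points at the left edge are regions that cover a TSS, and the dashed line is the 3 kb window. At 2.5 μM, 3 genes are filled and the other 7 lie between 115 kb and 1555 kb.

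The neighbours of the 10 genes are given beside the 10.8% of all protein-coding genes called at 2.5 μM. Within 1 Mb of the gene start, TGFBR2 had 2 other protein-coding genes, of which STT3B was called at 2.5 μM and neither at 1 μM. TGFB2 had 4, with LYPLAL1 called at 2.5 μM, and SMAD3 had 15, with RPL4 and ZWILCH called. Of the uncalled genes, TGFB1 had 66 neighbours with 2 called, AXL and POU2F2, and SMAD2, SMAD4 and TGFB3 had 9, 11 and 18 neighbours with 0 called. SMAD7 had 9 with 3 called, which share the region at RPL17 and C18orf32, TGFBR3 had 13 with 3 called, CDC7, EVI5 and RPL5, and TGFBR1 had 13 with 2 called, NR4A3 and TBC1D2. Called neighbours occurred around both called and uncalled genes. No gene of the 10 had a called neighbour within 1 Mb at 1 μM, where 0.674% of all protein-coding genes were called. With so low a share, a count of 0 does not set these neighbours apart.

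The pathway around these genes was described with 6 lists of 152 further genes, of which 31 (20.4%) were called at 2.5 μM and 5 (3.29%) at 1 μM. The background was 10.8% and 0.674% of protein-coding genes. The lists were rich in CpG promoters. Of the 152 genes, 93 had a CpG promoter at the gene start, against 46.8% of protein-coding genes, and 24 of the 93 (25.8%) were called at 2.5 μM where 14.8% of all 9436 such genes were. The other 59 gave 7 called genes (11.9%), against 7.25% of protein-coding genes without a CpG promoter. At 1 μM, 4 of the 93 and 1 of the 59 were called, where the shares of all such genes were 0.901% and 0.475%. The lists were written by hand with earlier results of these data known, so their shares are not independent of the data. They are described by counts without a test. The median length of the region at the 31 called genes was 5299 bp, and it was 5149 bp over all 2178 protein-coding genes called at 2.5 μM.

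Among the ligands of the wider superfamily (the BMPs, GDFs, activins, NODAL and others), 1 of 30 was called at 2.5 μM and 0 at 1 μM. The shares of all protein-coding genes were 10.8% and 0.674%, and 14 of the 30 genes had a CpG promoter at the gene start. The 1 gene was GDF5, and its region covered a gene start that is not the canonical TSS and that lies beside the start of CEP250. AMH, which encodes the anti-Müllerian hormone, lay just outside the window, 8.51 kb from a region. TGFB2 was thus the 1 TGF-β superfamily ligand gene of the 33 considered with a reduced region over its canonical TSS. With canonical transcripts only, 4.61% of all annotated genes were called at 2.5 μM, so 1 of 33 does not set the ligand genes apart.

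Of the 25 extracellular modulators, 4 were called at 2.5 μM (16.0%) and 0 at 1 μM. They were NOG, which encodes the BMP antagonist noggin (7049 bp), FST, which encodes the activin antagonist follistatin (5099 bp), LTBP1, which encodes a protein that anchors latent TGF-β in the matrix (4649 bp), and ITGAV, the αv integrin subunit whose dimers release TGF-β from its latent complex (4099 bp). The LTBP1 region lay over internal TSS, 187 kb from the gene start. LTBP2 was 6.48 kb from a region and outside the window.

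Of the 16 other receptors and coreceptors, 5 were called at 2.5 μM (31.2%) and 1 at 1 μM. RGMB, which encodes a BMP coreceptor, was called at both doses, with regions of 11549 bp at 1 μM and 11499 bp at 2.5 μM that also covered the start of its antisense gene RGMB-AS1. The type II receptor genes BMPR2 (6399 bp) and ACVR2A (4949 bp) and the type I receptor gene BMPR1A (5249 bp) were called at 2.5 μM over their gene starts. The fifth was HJV, which encodes the BMP coreceptor hemojuvelin (5299 bp), with the region at a gene start that is not the canonical TSS.

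None of the other SMAD genes was called. SMAD1 was 71.4 kb from the nearest region at 2.5 μM, SMAD6 was 196 kb away, SMAD5 was 1097 kb and SMAD9 was 2113 kb, and at 1 μM the 4 genes were 2292 kb to 13155 kb from any region. SMAD3 was therefore the 1 gene called of the 8 human SMAD genes. This count is near the 10.8% of all protein-coding genes called at 2.5 μM and does not set the SMAD genes apart. Among 34 SMAD regulators and cofactors, 9 were called at 2.5 μM (26.5%) and 1 at 1 μM. SMURF2, which encodes a ubiquitin ligase that binds SMAD7 and turns over the TGF-β receptors, had the longest region, 17199 bp at 1 μM and 16749 bp at 2.5 μM. Its relative SMURF1 had 4549 bp at 2.5 μM and NEDD4L, another ubiquitin ligase of this family, had 6599 bp over internal TSS. TGIF1, which encodes a corepressor that binds SMADs, had a region of 9949 bp over internal TSS that included the canonical one. The others were TAB2 (5149 bp) and MAP3K7 (4149 bp), which act in the TAK1 kinase branch of the pathway, PPM1A (4999 bp), a phosphatase gene, and STRAP (4099 bp), whose product binds the receptors and whose region also covered the start of EPS8. The TAB2 region lay over internal TSS, 97.3 kb from the gene start. Of the 9 distinct TSS of TAB2, 6 lay within 3 kb of this region, and the canonical TSS was 1 of them. WWP1 (3749 bp), outside the naming rule and added after its value was seen, completed the 9.

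Of 43 genes known as targets of TGF-β, 12 were called at 2.5 μM (27.9%) and 3 at 1 μM (6.98%). The 3 were DUSP4, ITGB1 and BHLHE40. DUSP4, which encodes a MAP kinase phosphatase, had regions of 14349 bp at 1 μM and 13849 bp at 2.5 μM. For ITGB1, the β1 integrin subunit, they were 13949 bp and 10699 bp, and for BHLHE40, a transcription factor gene, 8599 bp and 8549 bp. The ITGB1 region at 2.5 μM lay over internal TSS, 45.2 kb from the gene start, and also covered a start of ITGB1-DT. Of the 25 distinct TSS of ITGB1, 20 lay within 3 kb of this region, and the canonical TSS was 1 of them. At 2.5 μM the other long regions were at CCN1 (11549 bp), which encodes a matrix-associated protein and whose region also covered a start of DDAH1, HMGA2 (10149 bp), a chromatin protein gene linked to mesenchymal transition, VIM (9099 bp), which encodes vimentin, MYC (8899 bp) and JUN (7299 bp). CCN2, ZEB2, FN1 and SNAI2, named after their values were seen, made up the rest, with regions of 4699 bp to 6699 bp. The median region at the 12 target genes was 8724 bp and the regions at TGFB2, TGFBR2 and SMAD3 were 7699 bp to 9599 bp long. Several of these genes have other inputs than TGF-β, and the lists do not show which of them respond to it in these cells.

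**Figure D5:**
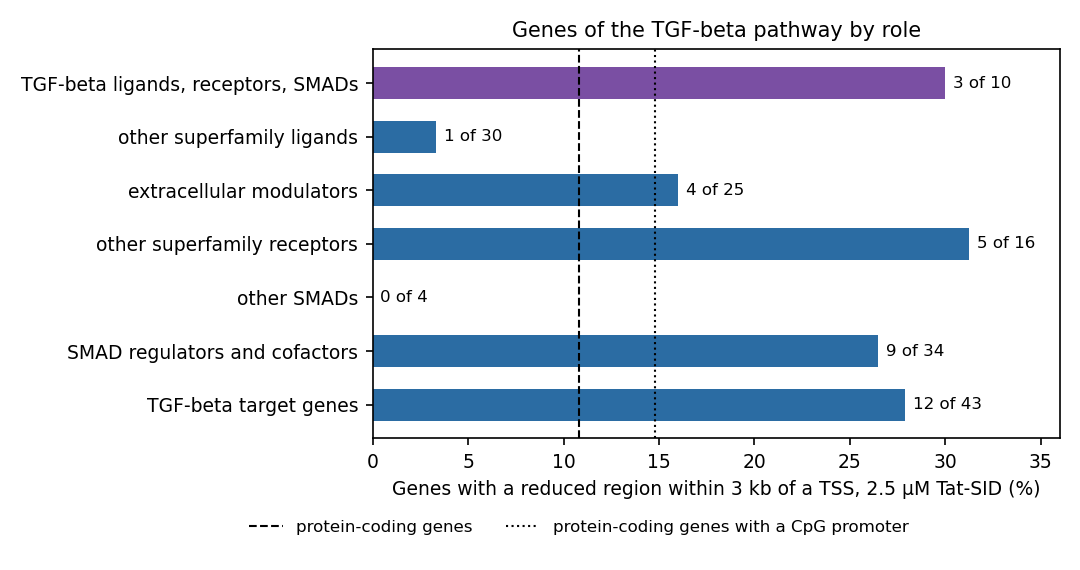
Bars show the percentage of genes called at 2.5 μM Tat-SID by the 3 kb rule, by role in the TGF-β pathway, with the number called of the number on each list; the dashed line marks 10.8% of all protein-coding genes and the dotted line 14.8% of those with a CpG promoter. The 10 ligand, receptor and SMAD genes stand at 3 of 10, the other superfamily ligands at 1 of 30 and the other SMADs at 0 of 4.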

How the data were processed

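Native ChIP for H3K4me3 was performed by the authors on MNase-digested chromatin of MDA-MB-231 cells, with 1 library for each of 3 conditions and 1 input library. Per the labels and the study's methods, reads were checked with FastQC (0.10.0), aligned to hg19 with Bowtie (1.0.0) and SICER-df was used to compare each treated library with the untreated one. The file names carry an FDR of 1e-15, which the study's results also give for reduced promoters. The methods give a less strict threshold. The deposited BED files used here hold region coordinates only, with starts on a 50 bp grid and no other value, so depth is unknown here and no test was made. Signal tracks and the study's quality summary were not analysed here.

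Starts were read as BED and are printed from 1. All regions fitted the chromosome lengths of GRCh37. TSS came from GENCODE release 44 mapped to GRCh37. Motifs, GC content and CpG ratios were read from GRCh37. Shares carry exact Clopper-Pearson 95% intervals where given. The code of the 3 kb rule was checked with a simulated region placed at a set distance from each of 400 genes. It called all 200 genes with the region inside the window, with 0 wrong calls. This checks the code and does not measure the accuracy of the listed regions. The genes and lists were chosen with earlier results of these data known. Named were the 10 genes, list genes called at 1 μM, up to 8 per list called at 2.5 μM with the longest regions, and those between 3 and 10 kb of a region. Python 3.11.15, numpy 2.4.6, scipy 1.17.1 and matplotlib 3.10.9 were used.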

Additional observations from a re-analysis of the deposited data

How the results depend on the processing

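The 7 alternatives tried for every count were gene starts only, basic transcripts, canonical transcripts, a 10 kb window, regions over the TSS base, regions of at least 1000 bp and merging within 3000 bp. Under each of them 3 of the 10 genes were called at 2.5 μM and 1 at 1 μM, and the lengths at TGFB2, TGFBR2 and SMAD3 did not move with merging. The 31 list genes at 2.5 μM became 26 with gene starts only, 27 with canonical transcripts and 33 with 10 kb, and the 5 at 1 μM became 4 with gene starts only. The background over all genes moved, as other TSS or genes were counted. At 2.5 μM the 5.30% was 4.84% with gene starts, 4.61% with canonical transcripts, 6.35% with 10 kb, 4.89% over the TSS base, 10.8% in protein-coding genes, 14.8% with a CpG promoter at the gene start, 15.0% with one at the canonical TSS and 13.3% with at least 4 TSS. At 1 μM the 0.360% was 0.290%, 0.298% and 0.411% for the first 3, and 0.674%, 0.901%, 0.942% and 0.817% for the last 4. The canonical CpG class and the class with at least 4 TSS were added after the data were seen. No paired analysis was possible because the conditions are single libraries without replicate numbers, and for the same reason no replicate could be left out.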
